A study of Mus musculus with 46 samples.

Results

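The 9 genes described here encode transcription factors, or a coactivator of transcription, known from the mesenchyme around the developing inner ear: Pou3f4, Tbx18, Tbx2, Tbx15, Eya1, Eya4, Osr1, Zeb2 and Nfib. They were taken by symbol from a table of 29871 genes, in which all 9 had a row, and 8 passed a filter of at least 1 CPM (reads per 1000000 reads) in at least 5 cells, as did 11447 genes in all. The study set out to find which cells of the cochlea express Dio2, the gene of the type 2 deiodinase that makes active thyroid hormone. Its 46 samples are single fluorescent cells, picked by hand after papain treatment from the cochlea of C57BL/6 mice at postnatal day 10, and they form 1 labelled group. All cells carried the same alleles, Dio2-CreERt2 in the heterozygous state with the Ai6 reporter. CreERt2 is a recombinase that works only with tamoxifen, and the reporter then glows in that cell and in its descendants, so fluorescence does not require that Dio2 is still active. The labels state neither the dose nor the time of tamoxifen. No animal is named, so all cells count as 1 sample. Cells were therefore not tested against each other, and every value below describes these picked cells.

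Cells were placed in 4 classes by 3 genes that are not among the 9. Ibsp encodes bone sialoprotein of bone-forming cells, Otos encodes otospiralin of cochlear fibrocytes, and C1qb encodes a complement subunit made by macrophages. At limits of 1000 CPM for Ibsp, 1000 CPM for Otos and 500 CPM for C1qb there were 12 Ibsp-high, 9 Otos-high, 4 C1qb-high and 21 remaining cells, and 0 cells passed more than 1 limit. The gaps at the limits were wide: Ibsp was 7618 CPM in the lowest cell inside and 107 CPM in the highest outside, Otos 1213 and 112 CPM, and C1qb 3048 and 148 CPM. Marker lists, which hold these genes themselves and so only describe the classes, gave 9 of 9 osteoblast markers at least 2 log2 units higher in Ibsp-high than in the remaining cells, 6 of 7 measured fibrocyte markers in Otos-high cells against the same cells, and 7 of 7 macrophage markers in C1qb-high against all others. The summed level of 8 fibrocyte markers was 34705 to 172577 CPM in Otos-high cells, but also 1380 to 36431 CPM in Ibsp-high and 130 to 118201 CPM in the remaining cells. Markers of hair cells summed to at most 7.94 CPM outside the C1qb-high class, so sensory cells of the cochlea were not seen among these. The cells had 2522853 to 10350249 listed reads, so 1 read was worth 0.087 to 0.347 CPM, and 3351 to 7143 genes at 1 CPM or more, with class medians of 5242.5, 4892, 4936 and 4968 in the order above. Cells are called by the number in their label. That number runs with the class, since cells 1 to 12 were the Ibsp-high cells and cells 43 to 46 the C1qb-high cells, so whatever the number stands for cannot be told apart from class. The labels do not say whether it is an order of collection.

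The otic mesenchyme gives rise to the bony capsule of the inner ear and to the fibrocytes of the spiral ligament and spiral limbus, which recycle potassium and hold the sensory epithelium in place. Pou3f4, a POU homeodomain factor encoded on the X chromosome, is the gene of a common X-linked deafness and is needed in these fibrocytes. T-box factors bind DNA through a shared domain, and Tbx18 is required for spiral ligament fibrocytes to mature. Eya proteins do not bind DNA themselves but act with homeodomain partners, and both Eya1 and Eya4 are human deafness genes. Osr1 is a zinc finger factor of early mesenchyme, Zeb2 a zinc finger repressor best known for silencing epithelial genes, and Nfib a member of the nuclear factor I family.

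Pou3f4 and Tbx18 were the most often detected of the 9 genes and the pair most often found together, so the sequence upstream of each is shown. The RefSeq table of promoters (build GRCm38.p6) held 4 of the 9 genes, Pou3f4, Tbx18, Eya4 and Zeb2. The Pou3f4 stretch is chrX:110814129-110814279 on the plus strand, 151 bases, shortened to end where the GENCODE annotation of the same build begins the gene, which lies upstream of the RefSeq start. The Tbx18 stretch is chr9:87731261-87731510 on the minus strand, 250 bases. Capitals mark a CCAAT box, searched as CCAAT on both strands and so also as ATTGG.
Pou3f4: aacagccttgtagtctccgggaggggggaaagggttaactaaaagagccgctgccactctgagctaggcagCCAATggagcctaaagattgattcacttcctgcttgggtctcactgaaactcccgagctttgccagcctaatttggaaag
Tbx18: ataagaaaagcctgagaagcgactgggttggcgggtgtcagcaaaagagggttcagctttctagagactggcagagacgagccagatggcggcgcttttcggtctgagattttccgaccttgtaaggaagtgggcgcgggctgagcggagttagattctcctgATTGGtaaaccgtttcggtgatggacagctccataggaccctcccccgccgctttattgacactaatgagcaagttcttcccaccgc
Each printed stretch held 1 such match. The full Pou3f4 window of the table, which runs on past the printed end, held 3, and the full Tbx18 window held 1. Among all 32851 promoter windows in the table, 20.1% of windows of 151 bases and 33.8% of windows of 250 bases held a match, so it is a common feature. No match was found in either stretch to the octamer ATGCAAAT, the T-box half-site AGGTGTGA, the letters CACCTG or the letters TTGGCA, which occur in 0.706% to 17.2% of windows of these lengths. Pou3f4 lies at chrX:110814379-110819108 on the plus strand, and no other annotated gene overlaps it. Tbx18 lies at chr9:87702800-87731260 on the minus strand, with D030062O11Rik on the opposite strand.

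Most values of these genes were either near 0 or high. Over the 8 genes with reads there were 368 values, of which 176 were under 2 CPM and 164 were 50 CPM or more, while 14 lay from 2 to under 10 CPM and 14 more from 10 to under 50 CPM (3 of them under 20). A gene was therefore called on in a cell at 10 CPM or more. The lowest value called on was 17.4 CPM, for Tbx18 in cell 18, and the highest below the limit was 8.55 CPM, for Eya1 in cell 36. Cells below the limit often still held a few reads: the median of such values was 0.250% to 0.520% of the mean of the same gene over all cells. Per kilobase of the longest coding transcript, the mean level was highest for Pou3f4 at 137 CPM and Osr1 at 107, followed by Tbx18 at 44.5, Eya1 at 32.7, Eya4 at 19.9, Nfib at 15.98, Tbx2 at 12.1 and Zeb2 at 8.58. The heat map of single cells shows this on-or-off pattern.

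**Figure D1:**
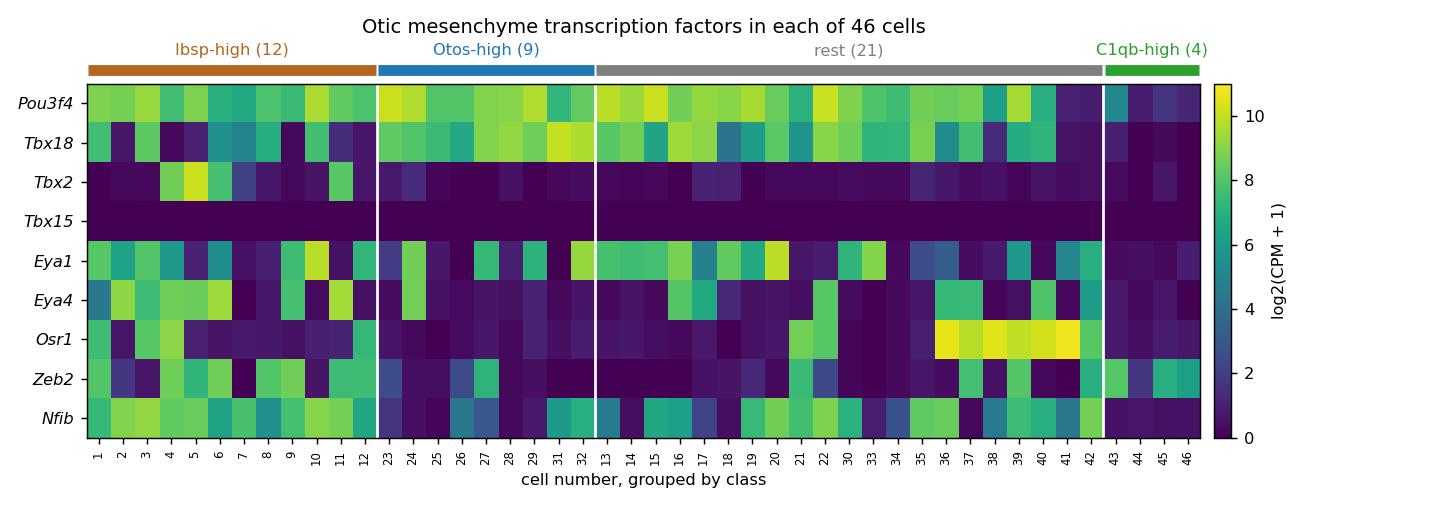
Level of the 9 genes (rows) in each of the 46 cells (columns, numbered as in the labels and grouped by class), as log2(CPM + 1) on the colour scale. Pou3f4 is high in nearly all cells but the 4 C1qb-high ones, Tbx2 is high in 4 Ibsp-high cells, and Tbx15 is at 0 throughout. Osr1 is high in cells 36 to 42 and is also on in cells 1, 3, 4, 12, 21 and 22.

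Pou3f4 was on in 41 of 46 cells (89.1%, exact Clopper-Pearson 95% interval 76.4 to 96.4, which like all intervals here covers counting error only). It was on in 12 of 12 Ibsp-high cells, with a lowest, median and highest level of 102, 278 and 772 CPM. In the Otos-high cells it was on in 9 of 9, at 152, 486 and 1116 CPM. In the remaining cells it was on in 19 of 21, at 0.793, 395 and 1111 CPM. The Ibsp-high and Otos-high cells thus overlapped widely, and the difference of mean log2(CPM + 1) between them was -0.61 (Ibsp-high minus Otos-high) beside a pooled standard deviation (SD) over cells of 0.93. The 2 remaining cells without Pou3f4 were cell 41 at 1.04 CPM and cell 42 at 0.793 CPM. In the C1qb-high cells 43 to 46 it was 34.2, 0.775, 2.22 and 1.30 CPM. The 1 C1qb-high cell above the limit, cell 43, also had the highest summed level in its class of osteoblast markers (199 CPM), fibrocyte markers (448 CPM) and Schwann or glial markers (10584 CPM), and the part of these in its Pou3f4 value was not tested.

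Tbx18 was on in 33 of 46 cells (71.7%, 56.5 to 84.0) and differed more than Pou3f4 between the Otos-high and Ibsp-high classes. In the Otos-high cells it was on in 9 of 9, with a lowest, median and highest level of 98.0, 375 and 1017 CPM. In the Ibsp-high cells it was on in 6 of 12, at 0.194, 15.6 and 302 CPM. These 2 classes overlapped only through the upper Ibsp-high cells, and the mean log2(CPM + 1) was 4.77 lower in the Ibsp-high cells (difference -4.77, pooled SD 2.62). The remaining cells lay between, on in 18 of 21, at 0.397, 147 and 699 CPM. The Otos-high mean was 2.05 above theirs (pooled SD 2.38). With cells 22, 42 and 43 left out, which carry markers of more than 1 class, it was 1.87 above. Some cells that were kept carried such markers too: summed osteoblast markers were 2947 CPM in remaining cell 38, against 1300 CPM in cell 42. No C1qb-high cell had Tbx18 on, and the highest was 0.931 CPM. D030062O11Rik, whose gene overlaps Tbx18 on the opposite strand, was on in 22 of 33 cells with Tbx18 and in 1 of 13 without, at up to 126 CPM. The labels and headers do not say whether strand was used in counting, so reads of this overlap cannot be assigned to 1 gene with certainty. Genes on the opposite strand are also annotated at Tbx15, Eya1, Osr1, Zeb2 and Nfib. Of these, 1700022H16Rik at Osr1 reached at most 1.83 CPM and Gm11269 at Nfib 0 CPM.

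Tbx2 encodes a T-box repressor, and it was on in Ibsp-high cells alone. It was on in 4 of 46 cells (8.70%, 2.42 to 20.8), all Ibsp-high: cell 5 at 1109 CPM, cell 4 at 389 CPM, cell 11 at 285 CPM and cell 6 at 217 CPM. The next highest cell, also Ibsp-high, had 3.48 CPM. In the Otos-high and the remaining cells the highest values were 1.56 and 1.17 CPM. The difference of mean log2(CPM + 1) between Ibsp-high and remaining cells was 2.89 (pooled SD 2.42), and it rested on these 4 cells, since the Ibsp-high median was 0.622 CPM. Tbx15, a T-box factor of the skeleton, had 0 reads among 233355928 listed reads. A count of 0 allows up to 3 reads, or 0.0117 CPM over all cells together and 0.261 to 1.04 CPM in a single cell, so low levels of Tbx15 were not detectable at this depth in 1 cell.

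Eya1 and Eya4 differed in where they were found. Eya1 was on in 25 of 46 cells (54.3%, 39.01 to 69.1) and was spread over 3 classes: 8 of 12 Ibsp-high cells at 0.462, 70.3 and 895 CPM (lowest, median and highest), 4 of 9 Otos-high cells at 0, 2.79 and 621 CPM, and 13 of 21 remaining cells at 0.161, 61.2 and 939 CPM. The ranges were alike, and the largest difference among these 3 classes was 1.12 between Ibsp-high and Otos-high (pooled SD 3.66). Eya4 was on in 16 of 46 cells (34.8%, 21.4 to 50.2), of which 8 were Ibsp-high, at 0, 200 and 721 CPM over that class. It was on in 1 of 9 Otos-high cells, cell 24 at 402 CPM, while the other 8 were at 1.08 CPM or less. In the remaining cells it was on in 7 of 21, at 0, 0.480 and 279 CPM. Mean log2(CPM + 1) of Eya4 was 4.09 higher in Ibsp-high than in Otos-high cells (pooled SD 3.54) and 2.78 higher than in the remaining cells (pooled SD 3.64). Both genes were on together in 10 cells. Neither was on in a C1qb-high cell.

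Osr1 had the highest single value of the 9 genes and was on in some cells of 2 classes. It was on in 13 of 46 cells (28.3%, 15.99 to 43.5). In the remaining cells it was on in 9 of 21, and the levels in those 9 cells ran from 284 to 1691 CPM (cell 41) with a median of 996. In the Ibsp-high cells it was on in 4 of 12, cells 1, 3, 4 and 12, at 161 to 539 CPM. The highest Otos-high cell had 1.08 CPM and the highest C1qb-high cell 0.808 CPM, so 0 of 9 and 0 of 4 were on. Within the remaining cells the gene followed the cell number: it was on in 7 of 7 cells from 36 to 42 and in 2 of 14 others, cells 21 and 22. Mean log2(CPM + 1) was 3.88 lower in Otos-high than in the remaining cells (difference -3.88, pooled SD 3.99), a difference that a minority of cells made, as the median of the remaining cells was 0.686 CPM.

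Zeb2 was the only one of the 9 genes whose mean was higher in C1qb-high than in all other cells. In cells 43 to 46 it was 276, 2.32, 120 and 74.9 CPM, on in 3 of 4. In the Ibsp-high cells it was on in 8 of 12, at 0, 188 and 390 CPM (lowest, median and highest), and in the remaining cells in 4 of 21, at 0, 0.305 and 263 CPM. One Otos-high cell had it on, cell 27 at 140 CPM, and the next highest of that class had 5.03 CPM. Over all cells it was on in 16 of 46 (34.8%, 21.4 to 50.2). Mean log2(CPM + 1) was 3.81 higher in Ibsp-high than in the remaining cells (pooled SD 3.19) and 4.07 higher than in Otos-high cells (pooled SD 3.15). Since macrophages also express Zeb2, macrophage genes were counted in the Ibsp-high cells: Spi1 and Irf8, transcription factors of macrophages, were on in 0 of 42 cells outside the C1qb-high class. Csf1r, the receptor for a macrophage growth factor, was on in 2 of 8 Ibsp-high cells with Zeb2 and in 2 of 4 without. The summed level of 7 macrophage markers was 2.91 to 477 CPM in Ibsp-high cells, 2.39 to 5.71 in Otos-high, 1.53 to 250 in the remaining (highest in cell 22) and 16852 to 25247 in C1qb-high cells.

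Nfib was on in 30 of 46 cells (65.2%, 49.8 to 78.6) and gave the widest gap of the 9 genes between the Ibsp-high and Otos-high classes. In the Ibsp-high cells it was on in 12 of 12, with a lowest, median and highest level of 44.8, 269 and 602 CPM. In the Otos-high cells it was on in 3 of 9, at 0.154, 2.23 and 119 CPM. The 2 classes overlapped between 44.8 and 119 CPM, and their mean log2(CPM + 1) differed by 5.21 (pooled SD 1.90). The remaining cells were spread over both ranges, on in 15 of 21, at 0.180, 93.4 and 474 CPM. In the C1qb-high cells the highest value was 0.581 CPM. The plot of levels by class shows Nfib and Tbx18 with opposite order of the Ibsp-high and Otos-high medians.

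**Figure D2:**
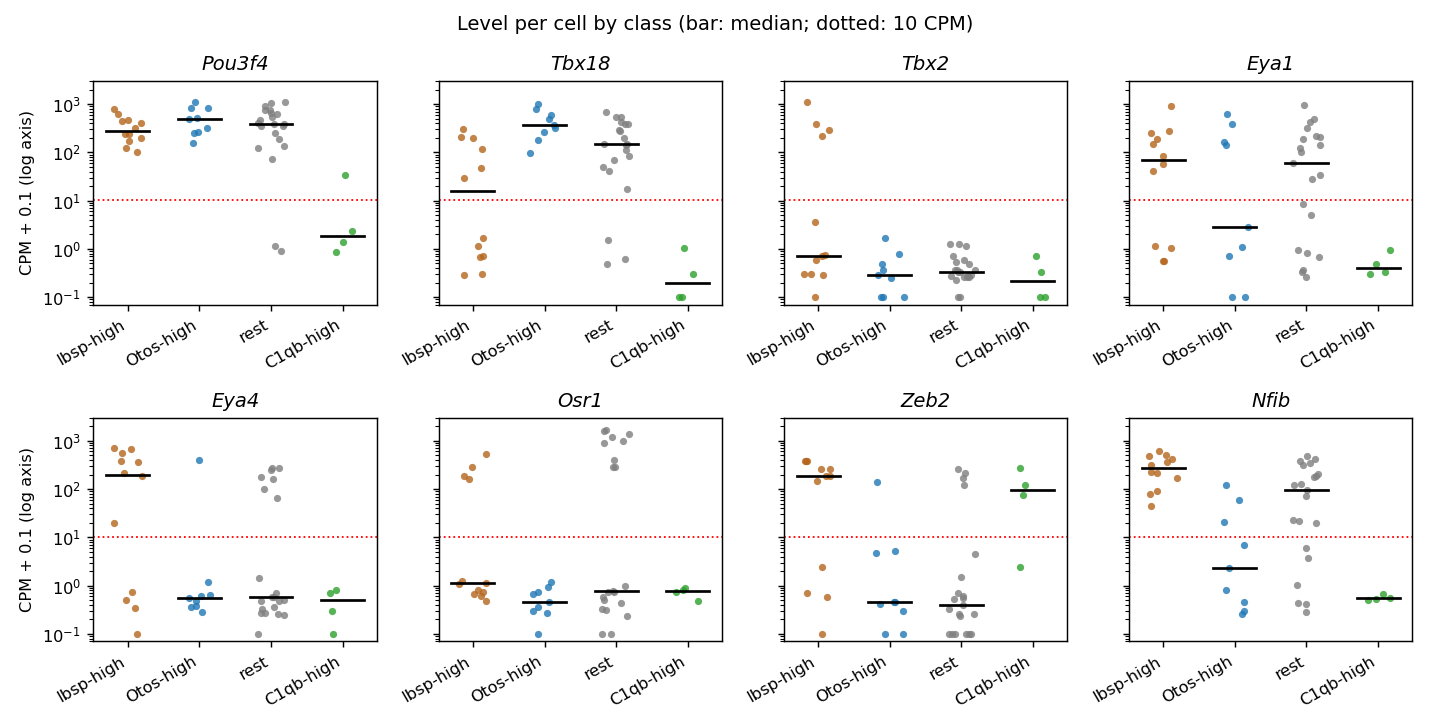
CPM + 0.1 on a log axis in each cell (points) by class for the 8 genes with reads, with the class median (bar) and the 10 CPM limit (dotted). Tbx18 medians run from 15.6 CPM in Ibsp-high to 375 CPM in Otos-high cells, and Nfib medians from 269 down to 2.23 CPM.

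Counted over the 9 genes, the classes differed by at least 2 units of mean log2(CPM + 1) as follows. Between Ibsp-high and remaining cells 4 genes were higher (Tbx2, Eya4, Zeb2 and Nfib) and 1 lower (Tbx18), where 6.31% of the 11447 genes passing the filter were higher and 4.58% lower by that much (10.9% in all). Between Otos-high and remaining cells 1 was higher (Tbx18) and 2 lower (Osr1 and Nfib), beside 5.75% and 4.2% of all genes (9.95% in all). Between Ibsp-high and Otos-high cells 5 were higher (Tbx2, Eya4, Osr1, Zeb2 and Nfib) and 1 lower (Tbx18), beside 9.94% and 8.46% (18.4% in all). Between C1qb-high and all other cells 1 was higher (Zeb2) and 6 lower (Pou3f4, Tbx18, Eya1, Eya4, Osr1 and Nfib), beside 12.4% and 14.2% (26.6% in all). Median differences over the 8 genes with reads were 1.37, -0.62, 2.81 and -3.58 in these comparisons, and over all genes 0.09, -0.05, 0.13 and -0.47. All of these comparisons share cells and are not independent. In each comparison 0 of the 8 genes had values that did not overlap between the classes compared, beside 0.0699%, 0.00874%, 0.515% and 0.699% of all genes.

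**Figure D3:**
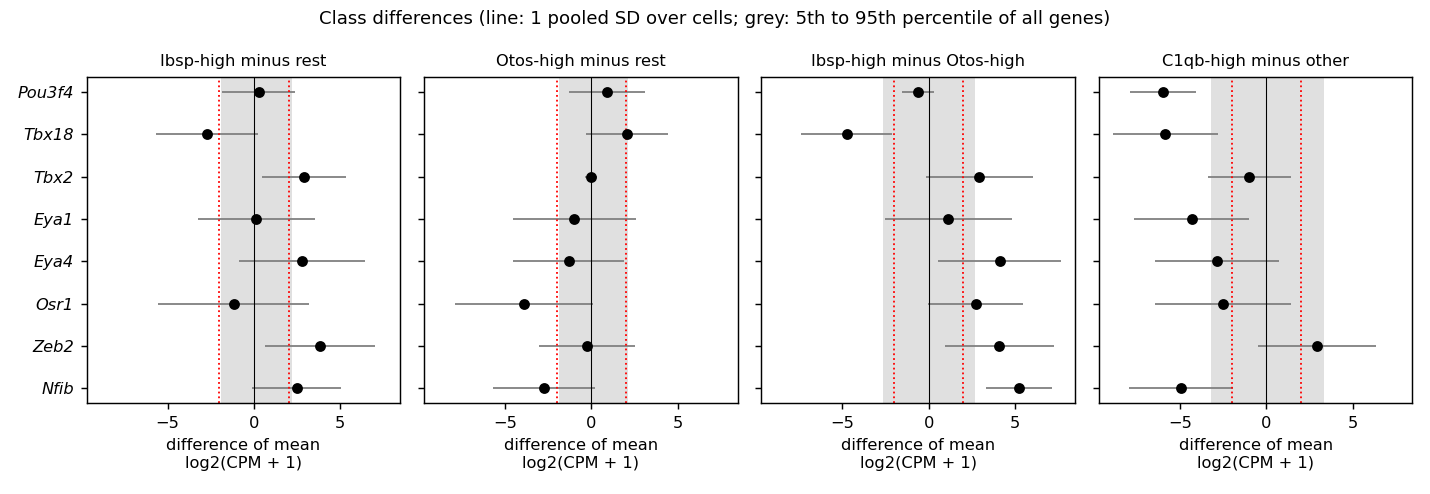
Difference of mean log2(CPM + 1) for 8 genes in the 4 class comparisons (points), with 1 pooled SD over cells (lines), the 5th to 95th percentile of all 11447 genes (grey) and the limit of 2 units in either direction (dotted). Tbx18 lies at -4.77 and Nfib at 5.21 in Ibsp-high minus Otos-high.

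Read cell by cell, the genes formed 26 different combinations of on and off, of which 18 occurred in 1 cell each. A cell had a median of 4 of the 9 genes on, with a range of 0 to 7. Ibsp-high cells had 3 to 7 on (median 5) in 11 combinations, Otos-high cells 2 to 4 (median 3) in 6, the remaining cells 2 to 6 (median 4) in 13, and C1qb-high cells 0 to 2 (median 1) in 3. The most common combination, Pou3f4, Tbx18, Eya1 and Nfib, was found in 7 cells, namely 10, 13, 15, 19, 20, 30 and 32, which come from 3 classes. Pou3f4 with Tbx18 and no other gene was found in 4 cells, the same pair with Eya1 in 4 and with Nfib in 4. Pou3f4, Tbx18, Eya4, Osr1 and Nfib were on together in 3 of the remaining cells, 22, 36 and 40. Cells 1, 4 and 6, all Ibsp-high, had 7 genes on, and cell 44 had none. The number of genes on had a Pearson r of 0.22 with the number of genes detected and 0.03 with reads, over 46 cells.

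Some genes were on only in cells where others were on. Such nesting says little where the other gene was on in nearly all cells. Every cell with Tbx18 on also had Pou3f4 on: 33 cells had both, 8 had Pou3f4 alone and 0 had Tbx18 alone. Pou3f4 was on in 40 of the 42 cells outside the C1qb-high class, which leaves little room for Tbx18 alone. Across cells the log2(CPM + 1) values of Pou3f4 and Tbx18 had a Pearson r of 0.67 (Spearman rho 0.59, 46 cells). In the 21 remaining cells r was 0.80 but rho 0.47, and 2 of these, cells 41 and 42, had both genes near 0. In the 12 Ibsp-high cells r was 0.30 (rho 0.50), and in the 9 Otos-high cells -0.12 (rho -0.13). The relation was thus not seen among the Otos-high cells. All 4 cells with Tbx2 also had Pou3f4, Eya4, Zeb2 and Nfib on, while 1 of them, cell 6, had Tbx18. These 4 cells were Ibsp-high, a class with Pou3f4 and Nfib on in 12 of 12 cells and Eya4 and Zeb2 each in 8. Of 13 cells with Osr1, 12 had Nfib, which was on in 12 of 12 Ibsp-high and 15 of 21 remaining cells. Tbx18 and Zeb2 had r -0.48 over 46 cells, with both on in 7 cells, Tbx18 alone in 26 and Zeb2 alone in 9. Osr1 and Tbx18 had r -0.19 (rho -0.22) over 46 cells. In the remaining cells r was -0.51 but rho -0.33, where 6 cells had both and 3 had Osr1 without Tbx18. All correlations here are over cells that share a preparation, and the pooled ones also mix classes.

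Dio2 itself was on in 23 cells. It was on in 23 of 41 cells with Pou3f4 and in 0 of 5 without, and those 5 were cells 41 and 42 of the remaining class and the C1qb-high cells 44 to 46. For Tbx18 the counts were 20 of 33 and 3 of 13, and for Eya1 15 of 25 and 8 of 21. For Eya4 and Zeb2 alike they were 8 of 16 and 15 of 30, for Nfib 15 of 30 and 8 of 16, and for Osr1 6 of 13 and 17 of 33. For Tbx2 they were 1 of 4 and 22 of 42. The Pearson r of Pou3f4 with Dio2 was 0.42 over 46 cells and 0.28 over the 42 cells outside the C1qb-high class.

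The genes whose levels most resembled each member were ranked by Pearson r of log2(CPM + 1) over 46 cells, among 7024 candidate genes on in at least 10 cells. For Pou3f4 they were Gpm6b (r 0.67), Tbx18 (0.67) and Kazald1 (0.67), with Spearman rho of 0.55, 0.59 and 0.35. For Tbx18 they were Gpm6b (0.76), Col9a2 (0.73) and Col9a1 (0.70), with rho of 0.63, 0.66 and 0.66. Col9a1 and Col9a2 encode chains of type IX collagen. For Tbx2, on in 4 cells only, they were Gja1 (0.71), Wif1 (0.66) and Col1a1 (0.64), with rho of 0.25, 0.28 and 0.59. Gja1, which encodes a gap junction protein of bone cells, was on in 4 of 4 cells with Tbx2 and in 7 of 42 without, or 3 of 8 among Ibsp-high cells. Wif1, a secreted inhibitor of Wnt signalling, was on in 4 of 4 with Tbx2 and in 7 of 42 without, or 5 of 8 among Ibsp-high cells. For Eya1 they were Fzd8 (0.53), Bmp5 (0.53) and Cd2ap (0.49), and for Eya4 Tgm2 (0.60) and Col13a1 (0.60). For Zeb2 they were Rasa3 (0.64), Fam65b (0.57) and Nqo2 (0.56), and for Nfib Lifr (0.67), Cacnb3 (0.64) and Ptprd (0.64). Each value is the highest among all candidates in the cells that ranked them, and is given as a description.

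Osr1 had the closest neighbours once the Ibsp-high and C1qb-high cells were set aside. Over all cells they were Smim5 (0.70), Eln (0.63) and Smyd2 (0.62), and over the 30 Otos-high and remaining cells, with 5059 candidates, Igsf3 (0.83), Eln (0.76) and Ptrf (0.73). Eln encodes elastin, and it was on in 8 of 13 cells with Osr1 and in 3 of 33 without. Among remaining cells Eln was on in 8 of 9 with Osr1 and 2 of 12 without. Among Ibsp-high cells it was on in 0 of 4 and 0 of 8. Igsf3 was on in 9 of 9 remaining cells with Osr1 and in 1 of 12 without, but in 2 of 4 and 4 of 8 Ibsp-high cells. The 8 fibrocyte markers were counted beside Osr1 in the remaining cells, a count added after the values were known. Car3, a carbonic anhydrase gene, reached 1000 CPM in 0 of 9 cells with Osr1 and in 9 of 12 without, Coch, the cochlin gene, in 1 of 9 and 12 of 12, and Otor in 1 of 9 and 8 of 12. The other 5 markers differed less: Slco1c1 reached 1000 CPM in 4 of 9 and 6 of 12, Gjb2 in 1 of 9 and 2 of 12, Gjb6 in 1 of 9 and 3 of 12, and Otos and Kcnk2 in 0 of either. These counts depend on the limit. At 10 CPM Car3, Coch, Otor and Otos were on in 9 of 9 and 12 of 12. They were on in all 46 cells at that limit, the 4 C1qb-high cells included, so it cannot tell cells apart for these genes. At 10 CPM Slco1c1 was on in 7 of 9 and 12 of 12, and Gjb2 in 3 of 9 and 6 of 12. Gjb6 was on in 4 of 9 and 4 of 12, and Kcnk2 in 0 of 9 and 2 of 12. Among Ibsp-high cells Coch reached 1000 CPM in 4 of 4 with Osr1 and 5 of 8 without. Car3 did so in 1 of 4 and 5 of 8, and Otor in 0 of 4 and 0 of 8. The order of Coch was thus not the same in both classes, while that of Car3 was. In the 30 Otos-high and remaining cells Pou3f4 and Tbx18 were each other's first neighbour (r 0.75, Spearman rho 0.33). First neighbours by r were Wdr1 for Eya1 (0.62), Usp7 for Eya4 (0.71), Ubqln4 for Zeb2 (0.61) and Slc38a2 for Nfib (0.65). Tbx2 was on in none of those 30 cells.

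Relatives and partners of the 9 genes were taken from lists of related factors. Of all 11447 genes passing the filter, 6.31% were higher and 4.58% lower by 2 units in Ibsp-high than in remaining cells. Those shares stand beside each list count of that comparison below, though list genes were picked by another filter. Of 12 other POU factors, 2 were on in at least 20% of the Ibsp-high or the remaining cells, and neither differed by 2 units in that comparison: Pou3f3 was on in 24 cells and Pou6f1 in 13. Of 14 other T-box factors, 2 were measured in this way, and Tbx1, whose loss in mice disrupts the inner ear, was lower in Ibsp-high than in remaining cells by a difference of -2.02. Tbx1 was on in 27 cells, 23 of them with Tbx18, and Mga in 21. In the nuclear factor I family 0 of 3 other members differed by 2 units between these classes, with Nfia on in 33 cells, Nfic in 40 and Nfix in 42. At least 1 family member was on in 46 of 46 cells and all 4 in 16.

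Partners and relatives of Eya1 and Eya4 followed the classes in other ways. Of 10 genes on that list 3 were measured in Ibsp-high or remaining cells, and 1, Eya2, was lower in Ibsp-high cells (-2.80). Eya2 was on in 19 of 21 remaining cells, 6 of 12 Ibsp-high and 3 of 9 Otos-high cells, and was also lower in Otos-high than in remaining cells (-4.64). Six2 was on in 8 of 9 Otos-high cells, 4 of 12 Ibsp-high and 9 of 21 remaining cells, and was 3.18 higher in Otos-high than in remaining cells. An Eya gene (Eya1, Eya2 or Eya4) was on in 39 cells, which include 21 of 21 remaining cells. Among 7 relatives and fellow repressors of Zeb2 and Osr1, 5 were measured and 1, Twist1, was higher in Ibsp-high than in remaining cells (2.11). Zeb1, the paralog of Zeb2, was on in 11 cells, and both were on in 3. Twist2 (-1.04) and Snai1 (-0.36) differed by less than 2 units.

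**Figure D4:**
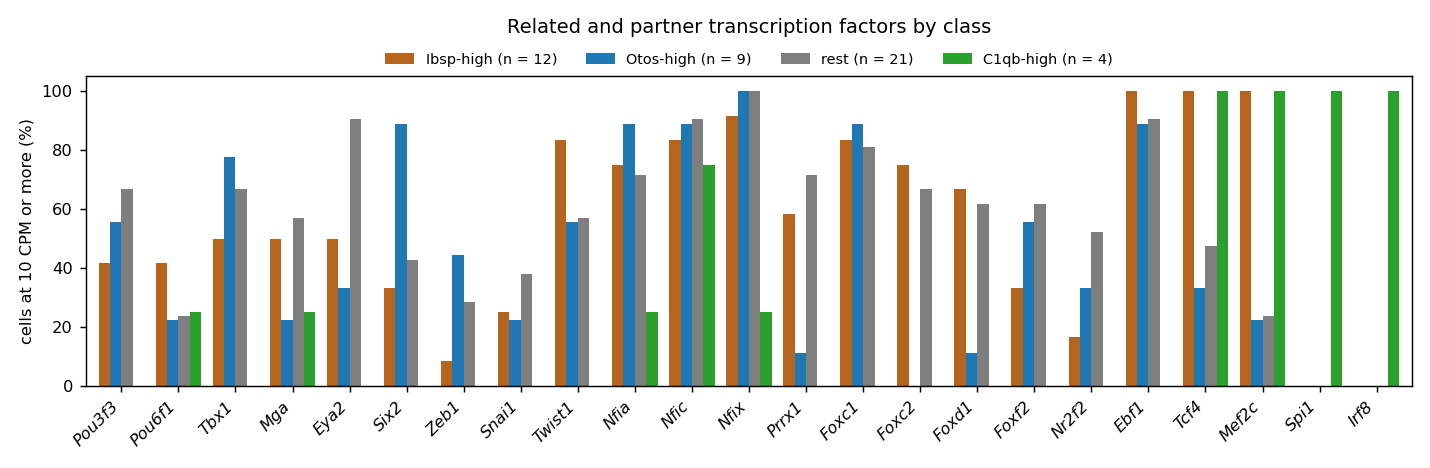
Share of cells in each class with a related or partner factor at 10 CPM or more, in percent, over 12 Ibsp-high, 9 Otos-high, 21 remaining and 4 C1qb-high cells. Eya2 is on in most remaining cells, Six2 in most Otos-high cells, Tcf4 and Mef2c in 12 of 12 Ibsp-high cells, and Spi1 and Irf8 in the C1qb-high cells alone.

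Of 29 other mesenchymal factors, 14 were measured in Ibsp-high or remaining cells. In Ibsp-high cells 1 was higher and 2 were lower, beside 6.31% and 4.58% of all genes. Tcf4, a basic helix-loop-helix factor, was higher (3.62), Nr2f2 (-2.84) and Foxf2 (-2.15) were lower, and Mkx differed by 1.98. Between Ibsp-high and Otos-high cells 16 were measured, 5 higher and 1 lower, beside 9.94% and 8.46% of all genes. The forkhead genes Foxc2 and Foxd1 and the homeobox gene Prrx1, named after their values were seen, were nearly missing from the Otos-high class: Foxc2 was on in 0 of 9, Foxd1 in 1 of 9 and Prrx1 in 1 of 9, against 14, 13 and 15 of 21 remaining cells. Prrx1 was on in 4 of 4 cells with Tbx2 and in 19 of 42 without, or 3 of 8 among Ibsp-high cells. Of 10 macrophage factors, a list that holds Zeb2, 5 were measured in Ibsp-high or remaining cells, with Mef2c (6.99) and Zeb2 higher and Cebpb (-4.90) and Maf (-3.38) lower in Ibsp-high cells. In C1qb-high against all other cells 7 of 9 measured macrophage factors were higher, beside 12.4% of all genes. Of 10 genes tied to deafness or otic mesenchyme work, 6 were measured between Ibsp-high and remaining cells, with Chd7 (2.77) higher and Gjb6 (-3.15) and Gjb2 (-2.66), both gap junction genes of fibrocytes, lower, while Coch differed by 1.48.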

How the data were processed

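Gene expression was measured by full-length single-cell RNA-seq (SMART-Seq v4 and ThruPLEX kits, per the labels' protocols) in 46 cells. The submitters' processing notes list STAR 2.7.3a, bcl2fastq 2 and the builds GRCm38 and mm10. For the counter, the annotation and the strand setting the entry is: not given in the sources used here. Expression was taken as CPM from the table deposited by the authors, per the file headers. Within a cell, 100% of values above 0 were whole multiples of the value of 1 read (tolerance 0.01 read), which gave reads per cell. No molecular identifiers were used, so reads are not independent molecules. The labels name no animal, and with 1 group no count test could be run.

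Levels were compared as mean log2(CPM + 1), a scale that understates differences of low genes, with Python 3.11.15, numpy 2.4.6, pandas 2.3.3, scipy 1.17.1 and matplotlib 3.10.9. A difference of at least 2 units was counted. Named genes are the 9 members, the 3 nearest genes of each by r (on in at least 10 cells), and up to 4 per list by the size of the Ibsp-high minus remaining difference. A list member counted as measured when on in at least 20% of either class. Gm, Rik and LOC symbols, mitochondrial and ribosomal genes were not ranked. Results of 2 genes that the rule names are not reported here. The members, classes and lists were chosen with earlier results of these data known. The search for CCAAT was added after the other motifs. Coordinates are RefSeq GRCm38.p6. No doublet caller was run. Alternatives were another limit for on, another pseudocount, scaling or filter, thinned reads and leaving out cells.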

Additional observations from a re-analysis of the deposited data

Results flagged for a closer look

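In the Otos-high class 2 single cells lay far from the other 8. Eya4 was 402 CPM in cell 24, where the next highest cell had 1.08 CPM, and the gap took a share of 0.903 of the range of the class on the log2(CPM + 1) scale, above Dixon's 95% critical value of 0.493. Zeb2 was 140 CPM in cell 27, where the next highest had 5.03 CPM, a gap share of 0.637. Cell 24 also had the highest summed level of melanocyte or strial intermediate cell markers in its class (2098 CPM), whose part in the Eya4 value was not tested. Of 8 sets of values looked at, 2 were picked out in this way, and chance picks out about 1 in 20 where values follow a normal spread. These genes were on or off in a cell, so that rate does not hold here, and a single on cell among off cells is picked out by construction.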

How the results depend on the processing

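The number of member values called on was 178, and it was 208 at a limit of 1 CPM, 164 at 50, 149 at 100 and 178 with reads thinned to 2882648 per cell. Without cells 22, 42 and 43, a choice made after seeing the data, it was 166. Of 21 differences of at least 2 units, 20 kept their direction in every alternative run and 9 stayed at 2 units or more in every one. With a pseudocount of 10 the members past 2 units numbered 1 in place of 5 for Ibsp-high minus remaining cells, 1 in place of 3 for Otos-high minus remaining cells and 4 in place of 7 for C1qb-high minus other cells. With median CPM in place of means the first count was 3, and Osr1 in C1qb-high minus other cells reversed from -2.51 to 0.0057. Tbx18 in Otos-high minus remaining cells ranged from 1.35 to 2.29 and was under 2 units in 13 of 38 alternatives. Without the filter on low values the share of all genes past 2 units was 4.19%, 3.86%, 7.13% and 11.2% in the 4 comparisons, in place of 10.9%, 9.95%, 18.4% and 26.6%, since more genes at or near 0 entered. Within classes, r of Pou3f4 with Tbx18 was 0.304 in Ibsp-high and -0.1205 in Otos-high cells. That of Tbx18 with Zeb2 was -0.1524 in Otos-high cells. That of Osr1 with Tbx18 was -0.5149 in the remaining cells (Spearman rho -0.33). The cause of these values was not tested. Leaving out 1 cell at a time kept all 130 counts within 1.5 times their value. No paired analysis was possible because there is 1 group. With 1 sample no difference has a replicate check, and an off call does not show that a gene is silent.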
